A study of Mus musculus with 8 samples.

Results

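The EGR (early growth response) transcription factors Egr1, Egr2 and Egr3 and their corepressors Nab1 and Nab2 were described in regulatory T cells (Treg cells) of mice. They were found by gene symbol as 5 of the 24453 genes of the deposited table, and all 5 passed the filter on low values. The members were chosen with their values in these libraries already known, so their levels and differences are given as a description, without a test. Messenger RNA of T cells sorted as CD4-positive and Foxp3-positive was sequenced in 8 libraries, 3 from the line T143, 2 from the line T138 and 3 from wild type (WT). T143 and T138 are lines derived by nuclear transfer, in which all cells of an animal descend from the nucleus of 1 T cell and can carry its rearranged receptor. Per the series description, T138 models naturally occurring Treg cells and T143 an agonist-induced development. All 8 libraries, WT included, carry the strain label NOD-Foxp3GFP-Rag1-/-, which names the NOD background, a Foxp3 reporter and the loss of Rag1, and none was treated. Whether that label holds for the WT animals was not tested. WT is not a nuclear-transfer line, and its libraries held T cell transcripts (Cd3e at 7031 to 12487). Each line goes back to 1 nucleus, so that line and clone cannot be told apart.

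EGR proteins are zinc-finger activators whose genes are switched on within minutes of a T cell receptor signal. Egr1 is a classic target of the RAS-ERK-SRF route, and Egr2 and Egr3 depend in addition on calcineurin and NFAT. In T cells Egr2 and Egr3 are known for restraining activation and for their part in anergy. NAB proteins bind EGR factors and recruit the chromatin-remodelling NuRD complex to their targets. Nab2 is itself induced by EGR factors and so closes a feedback loop.

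The labels and the composition of the libraries bear on every comparison. For T143 replicate 1 the source name gives a T138 mouse, and for WT replicate 1 it gives a T143 mouse, while title, model and description give the groups used here. The depth recovered from the values was 7.83 to 12.6 M reads in T143, 15.84 and 18.41 M in T138 and 14.64 to 22.64 M in WT. None of the 8 markers of T cells and Treg cells was at 0 in any library, and their summed normalised count was 46606 to 58622 in T143, against 118091 and 120054 in T138 and 107044 to 122989 in WT. Of the 8, 4 were called lower in T143 than in T138, 4 lower in T143 than in WT and 1 lower in T138 than in WT. Cd3d, a chain of the T cell receptor complex, was at 5243 to 11288 in T143, 3595 and 4002 in T138 and 2991 to 6976 in WT. The chain gene Cd3e went the other way, at 5213 to 8733 in T143, 11130 and 11899 in T138 and 7031 to 12487 in WT. Cd3g overlapped, at 7235 to 14140 in T143, 11081 and 10525 in T138 and 6937 to 10949 in WT. Cd4 was at 10922 to 15941 in T143, 12820 and 12235 in T138 and 14770 to 17655 in WT. Foxp3, the gene of the sort, was at 3920 to 8694 in T143, 41854 and 41161 in T138 and 29773 to 36362 in WT. The other markers of the list, Il2ra, Ctla4 and Ikzf2, were also lower in every T143 library than in any other library. Il2ra was at 909 to 1414 in T143, 8631 and 7099 in T138 and 12116 to 13734 in WT. Ctla4 was at 601 to 2978 in T143, 10221 and 11591 in T138 and 8760 to 9632 in WT. Ikzf2 was at 3073 to 5014 in T143, 18760 and 21541 in T138 and 16080 to 26423 in WT. The 13 neutrophil and myeloid markers summed to 95805 to 557207 in T143, 26867 and 6686 in T138 and 380 to 1083 in WT. In the limma fit described below, 6 of the 13 were higher in T143 than in T138, 11 higher in T138 than in WT and 12 higher in T143 than in WT, and no group had a myeloid marker at 0 in all its libraries. The 10 dendritic cell and MHC class II markers summed to 6953 to 28584 in T143, 103165 and 77914 in T138 and 1283 to 1720 in WT, where Clec9a was at 0 in every library. Of these 10, 7 were lower in T143 than in T138, and 9 were higher than in WT in each line. EGR genes are also transcribed in myeloid cells, and the part of such cells in the values below was not tested. In bulk samples, fewer cells of a type and less RNA per cell cannot be told apart. T143 libraries had Xist, the transcript of the inactive X chromosome, at 19143 to 24992 and the Y-linked gene Ddx3y at 0 to 1.27, while Ddx3y was at 3634 and 3175 in T138 and 2094 to 3018 in WT. For T143, sex and line cannot be told apart. Of the 2 libraries with a conflicting source name, T143 replicate 1 had Xist at 19143 and Ddx3y at 0. WT replicate 1 had Xist at 35.1 and Ddx3y at 2923. Both thus had the sex transcripts of the group in their title. The summed markers of erythroid cells (8 genes) were 2307 to 13411 in T143, 853 and 1888 in T138 and 214 to 560.0 in WT, with 7 of 8 called higher in T143 than in WT. The lists of NK cells (5 genes), B cells (6 genes) and CD8 T cells (2 genes) summed to at most 1220, 505 and 316 in any library.

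**Figure D1:**
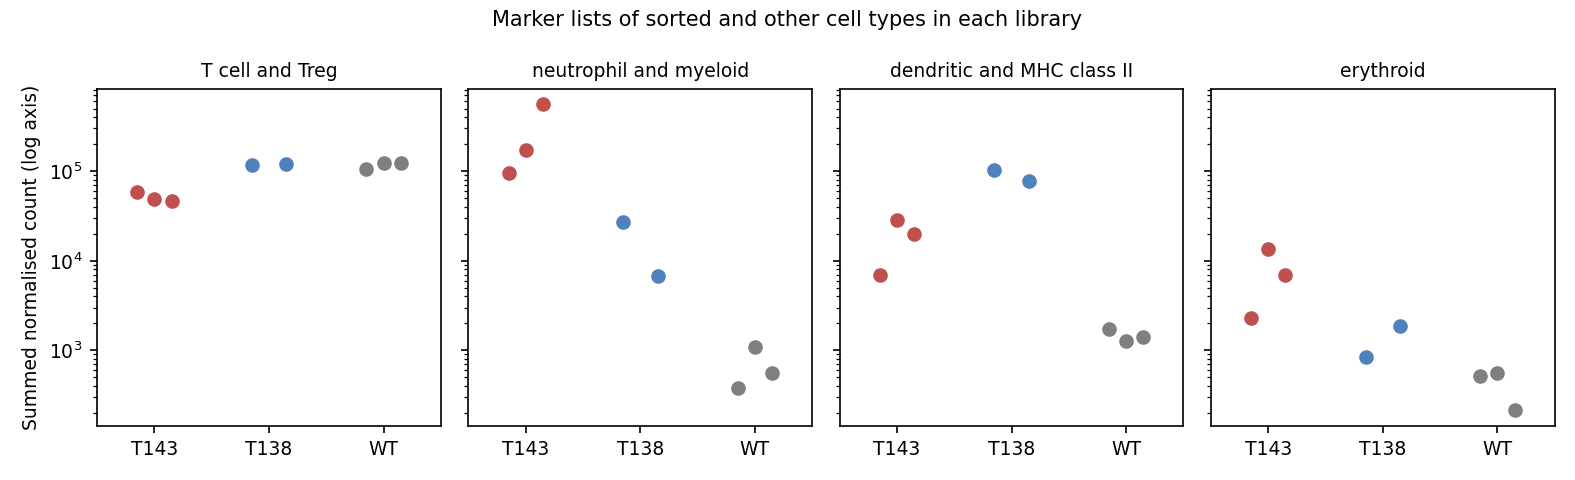
Summed normalised read count (log axis) of 4 marker lists in each library, with 1 point per library in the order T143, T138, WT. Myeloid markers reached 557207 in T143 and dendritic cell and MHC class II markers 103165 in T138, while WT stayed at or below 1720 in both lists.

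Values are normalised read counts: gene reads that the authors divided by 1 factor per library. Differences between groups are on the log2(value + 1) scale, with the standard error (SE) of a limma fit over all 8 libraries. Egr1 and its relatives Egr2 and Egr3 were ordered differently across the groups. Egr1 was highest in T138, while Egr2 and Egr3 were lowest there and highest in WT, with T143 between. Nab1 was highest in T143 and Nab2 lowest in T138.

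**Figure D2:**
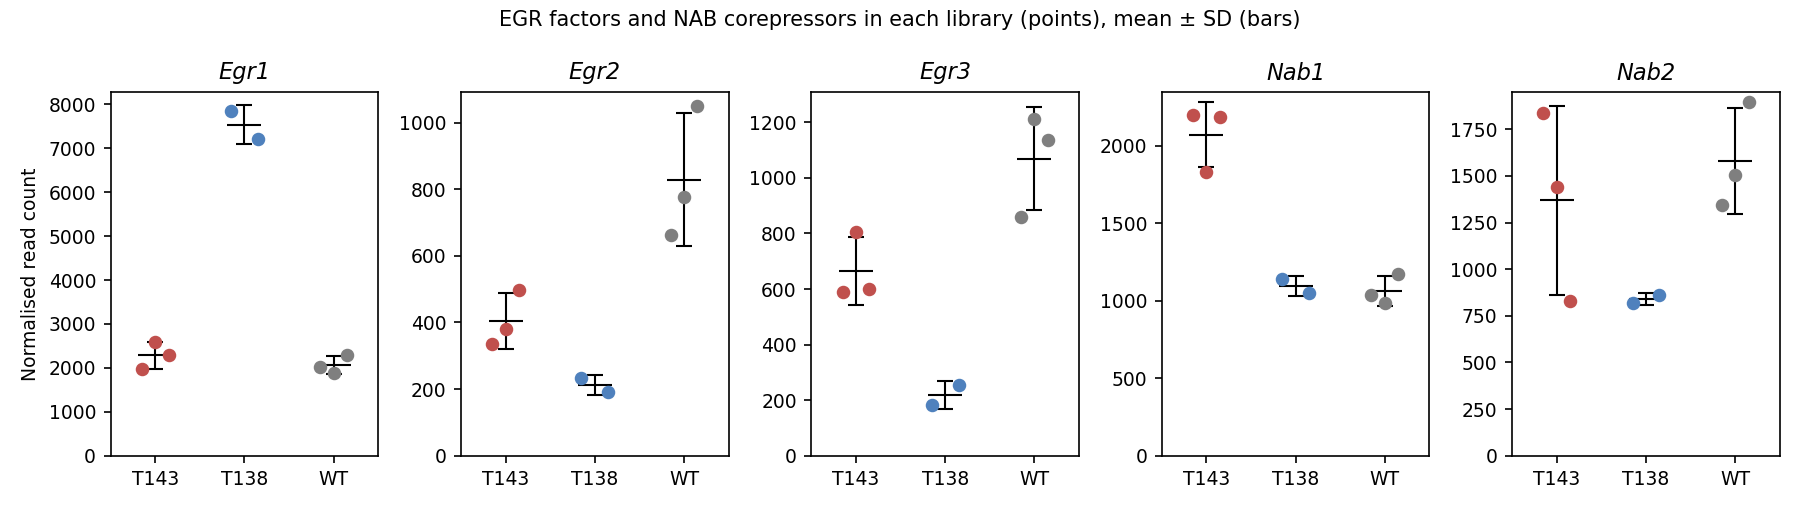
Normalised read count of each member in every library (points) with the group mean ± SD (bars), in the order T143, T138, WT. Egr1 was above 7000 only in the T138 libraries, Egr2 and Egr3 were lowest in T138, and Nab1 was highest in T143.

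Egr1 (NM_007913, chromosome 18, 34861207 to 34864956, plus strand, GRCm38) encodes the factor first induced by ERK signalling. Its count was 1972, 2592 and 2283 in the T143 libraries, 7845 and 7217 in the T138 libraries, and 2023, 1877 and 2289.9 in the WT libraries. Both T138 libraries lay above all 6 others, and T143 overlapped WT. The difference of T143 from T138 was -1.73 ± 0.16, or 3.3-fold lower. T138 differed from WT by 1.87 ± 0.16 (3.65-fold higher), and T143 from WT by 0.14 ± 0.14.

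Beside these Egr1 values stand the marker sums given above, and the part of other cell types in Egr1 was not tested.

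Egr2 (NM_010118, chromosome 10, 67534469 to 67542188, plus strand) encodes Krox20, which restrains T cell activation. The promoter is shown because its letters hold elements through which immediate early genes are known to respond. The stretch covers the 140 bases before the start at position 67537869, 1 of 5 starts listed for Egr2, chr10:67537729-67537868 of GRCm38.p6 on the plus strand, from RefSeq. Capitals mark a CArG box, the element bound by SRF, and the half-site TGACG of cyclic AMP response elements, read on both strands.
Egr2: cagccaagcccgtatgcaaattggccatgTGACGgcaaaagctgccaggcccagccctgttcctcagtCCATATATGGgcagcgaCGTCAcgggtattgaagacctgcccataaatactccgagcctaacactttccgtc
The CArG box began 72 bases before the transcript start, and half-sites began 111 and 55 bases before it, with no overlap between the motifs. A CArG box was present in 1.63% and the half-site in 20.8% of the 32851 RefSeq promoter windows, each reaching from 250 bases before to 50 after a start. These matches describe letters and not binding.

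Egr2 was at 334, 381 and 496 in the T143 libraries, 234 and 191 in the T138 libraries, and 662, 776 and 1049 in the WT libraries. The groups did not overlap, and WT lay above T143 and T143 above T138. T143 differed by 0.91 ± 0.26 from T138 and by -1.03 ± 0.24 from WT, and T138 differed by -1.94 ± 0.26 from WT. The mean in T138 was 3.9-fold lower than in WT. Behind these values stood 168 to 401 reads per library in T143, 238 and 226 in T138 and 729 to 1380 in WT.

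Egr3 (NM_001289925, chromosome 14, 70077317 to 70082613, plus strand) is the closest partner of Egr2 in T cells, with overlapping functions. It was at 589, 807 and 600.3 in the T143 libraries, 182 and 253 in the T138 libraries, and 860.3, 1213 and 1135 in the WT libraries. The order was that of Egr2, again without overlap, but the highest T143 library (807) lay close to the lowest WT library (860.3). T143 differed by 1.61 ± 0.24 from T138 and by -0.68 ± 0.22 from WT. T138 differed by -2.30 ± 0.24 from WT, which is 4.91-fold lower.

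The fourth family gene, Egr4 (NM_020596, chromosome 6, 85511121 to 85513589, minus strand), does not belong to the members and was close to absent. It had 0, 0 and 2 reads in T143, 0 and 0 reads in T138 and 6, 5 and 17 reads in WT. A count of 0 allows a value of up to 2.95 and 2.54 in the T138 libraries, for counting error only. No difference passed, with a limma adjusted p of 0.688 between T143 and T138, 0.0786 between T138 and WT and 0.0731 between T143 and WT.

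Nab1 (NM_008667, chromosome 1, 52455849 to 52500712, minus strand) encodes a corepressor of EGR factors. Its RefSeq promoter window held the EGR consensus GCGTGGGCG on both strands, a motif present in 0.612% of all windows. It also held the variant GCGGGGGCG, which 2.91% of windows hold, and 1 half-site TGACG. The stretches around both consensus matches are shown because Nab1 acts on the factors that read these letters. They are chr1:52500571-52500600 and chr1:52500539-52500568 of GRCm38.p6, read along the minus strand as Nab1 is, with the match in capitals. Both lie inside the span of Nab1 given above and inside the matched GENCODE transcript, which starts at 52500679. The matches began 141 and 109 bases before the start that RefSeq lists for the window.
Nab1 upstream match: cgccccgcggcCGCCCACGCcgggatctgc
Nab1 downstream match: cactcggccgcGCGTGGGCGggagccggag
The upstream match is the consensus of the opposite strand.

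Nab1 was at 2197, 1827 and 2186 in the T143 libraries, 1141 and 1049.9 in the T138 libraries, and 1036, 985 and 1169.6 in the WT libraries. All T143 libraries lay above all others, and T138 overlapped WT. T143 differed by 0.91 ± 0.16 from T138 and by 0.96 ± 0.14 from WT, where it was 1.95-fold higher, and T138 differed from WT by 0.04 ± 0.16.

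Nab2 (NM_008668, chromosome 10, 127660918 to 127666703, minus strand) encodes the EGR-induced corepressor. Its promoter window held none of the motifs searched. Its count was 1837, 1441 and 832 in the T143 libraries, 818 and 863 in the T138 libraries, and 1342, 1507 and 1895 in the WT libraries. T138 lay below WT without overlap, whereas T143 spanned both groups, since its replicate 3 was at the T138 level and its replicate 1 close to the highest WT library. T143 replicate 3 also had the highest myeloid sum (557207), but the part of myeloid cells in Nab2 was not tested. T143 differed by 0.63 ± 0.29 from T138 and by -0.27 ± 0.26 from WT, and T138 differed by -0.90 ± 0.29 from WT. Without T143 replicate 3, the T143 differences were 0.95 from T138 and 0.06 from WT. Without T143 replicate 1 they were 0.38 from T138 and -0.52 from WT, so that single T143 libraries decided the place of Nab2 in this line.

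**Figure D3:**
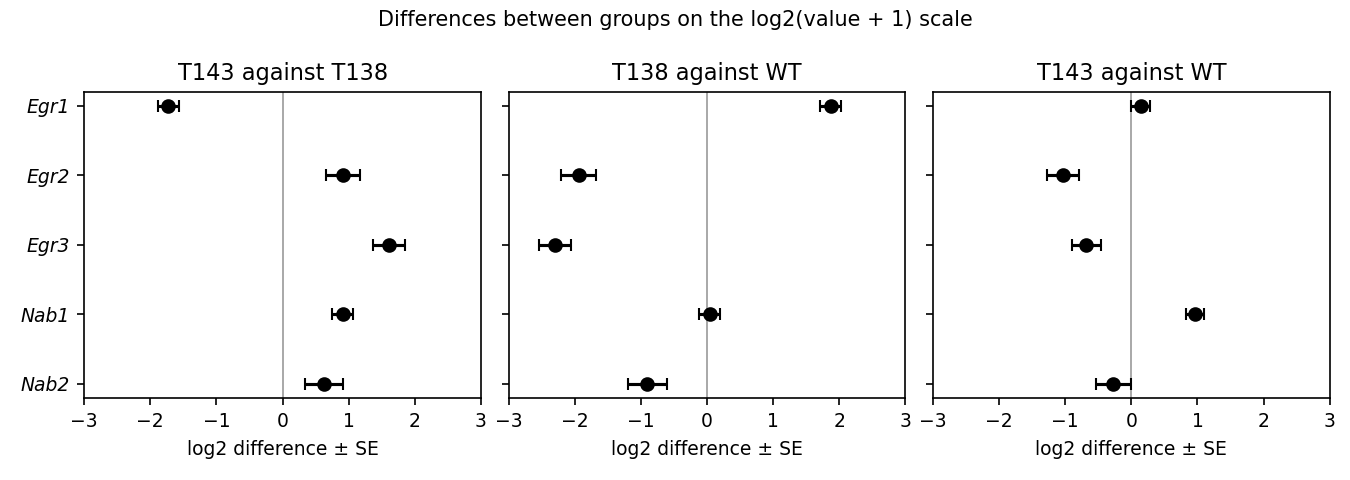
Log2 difference ± SE (limma, all 8 libraries) of each member in the 3 comparisons, with 0 as a vertical line. Egr1 and the pair Egr2 and Egr3 lie on opposite sides of 0 wherever T138 is one of the groups compared.

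Counted over the members, groups did not overlap for 4 of 5 between T143 and T138 (3 higher and 1 lower in T143), where 51.7% of the 15547 tested genes did not overlap (28.0% higher and 23.7% lower). Between T138 and WT this held for 4 of 5 (1 higher and 3 lower in T138), against 37.5% of tested genes (17.7% higher and 19.8% lower). Between T143 and WT it held for 3 of 5 (1 higher and 2 lower in T143), against 40.7% (20.0% higher and 20.7% lower). The members were chosen on these libraries, and nothing is read from these shares. Leaving out the 2 libraries with a conflicting source name, T143 replicate 1 and WT replicate 1, the differences between T138 and WT were 1.86 for Egr1, -2.09 for Egr2, -2.44 for Egr3, 0.03 for Nab1 and -1.01 for Nab2. For T143 against T138 they were -1.63, 1.03, 1.69, 0.87 and 0.38 in the same order of genes, and for T143 against WT 0.23, -1.05, -0.75, 0.90 and -0.63.

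Compared per kilobase of transcript, Egr1 was the most abundant EGR transcript in T143 and T138. With the length of the transcript matched by identifier, its level was 752 ± 102 in T143 (SD, n = 3), 2481 ± 146 in T138 (n = 2) and 680 ± 69.0 in WT (n = 3). Egr2 was at 136 ± 28.1 in T143, 71.8 ± 10.2 in T138 and 280 ± 67.0 in WT on the same scale. Egr3 was at 441 ± 81.3 in T143, 144 ± 33.3 in T138 and 709 ± 123 in WT, so that Egr1 and Egr3 were within their spread in WT. The Egr3 transcript matched by identifier has 1509 bases, and with the longest coding transcript (3940 bases) its level was 169 ± 31.1, 55.2 ± 12.8 and 271 ± 47.0 in T143, T138 and WT. The longest coding transcript of Egr1 (4484 bases in place of 3036) lowered its level to 509 ± 69.1 in T143, 1680 ± 99.1 in T138 and 460 ± 46.7 in WT. In WT the order of Egr3 relative to Egr1 and Egr2 therefore depended on the transcript chosen, while Egr1 led in T143 and T138 with both lengths.

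The balance within a library does not depend on its scaling. Per kilobase, Egr1 was 5.76, 6.65 and 4.49 times Egr2 in T143, 32.7 and 36.8 times in T138, and 2.98, 2.36 and 2.13 times in WT. Egr1 made up 56.3 to 57.1% of the summed EGR level in T143, 92.8 and 91.1% in T138 and 36.7 to 45.6% in WT. With the longest coding transcripts these shares were 61.4 to 63.4% in T143, 93.3 and 92.6% in T138 and 42.3 to 50.5% in WT, in the same order of groups. The summed level of Egr1, Egr2 and Egr3 was 0.902, 1.47 and 1.49 times that of Nab1 and Nab2 in T143, 4.55 and 4.31 times in T138, and 1.85, 2.01 and 1.8 times in WT. With the longest coding transcripts this ratio was 0.549, 0.885 and 0.935 in the T143 libraries and 3.07 and 2.87 in the T138 libraries. It was 1.13, 1.18 and 1.11 in the WT libraries. T143 replicate 1 lay below 1 with both lengths, while the side of 1 for replicates 2 and 3 depended on the transcript. The order of groups did not depend on it. Nab2 was 1.25, 1.18 and 0.571 times Nab1 in T143, 1.08 and 1.23 times in T138, and 1.94, 2.30 and 2.43 times in WT. Both lines lay below every WT library in this last ratio.

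**Figure D4:**
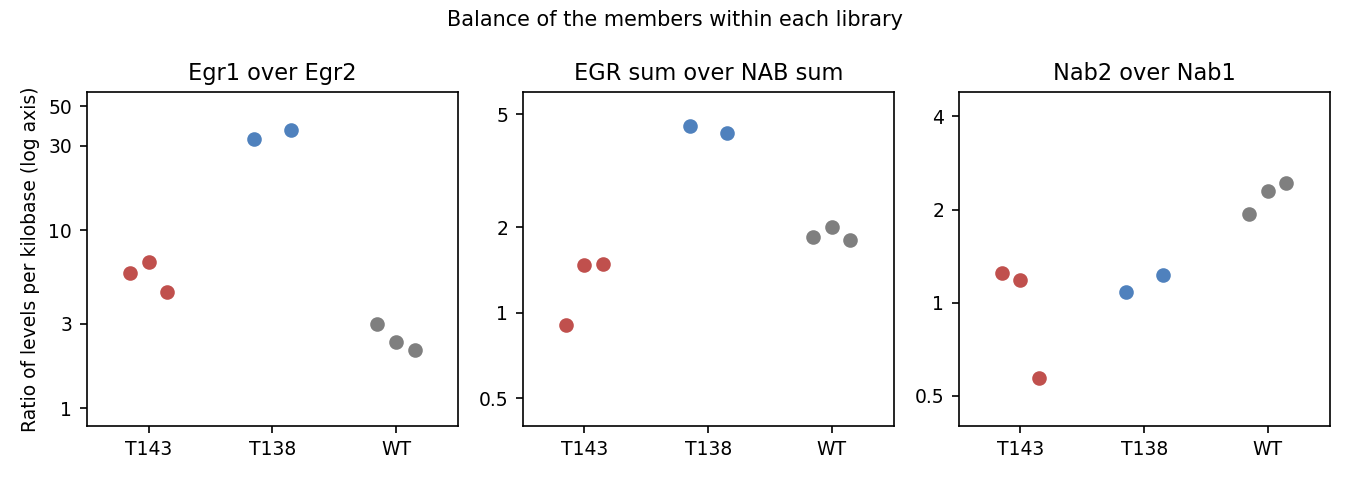
Ratios of levels per kilobase (log axis) within each library: Egr1 over Egr2, summed EGR factors over summed NAB corepressors, and Nab2 over Nab1. The T138 libraries stand at 32.7 and 36.8 for Egr1 over Egr2, and WT is highest for Nab2 over Nab1.

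Genes with the most similar pattern were found by Pearson correlation of log2(value + 1) over the 8 libraries, among 7573 genes with a mean above the median of 310.4. These correlations rest on 3 groups and describe mainly their means. For Egr1 they were Cd200r1 (r = 0.985), Esrra (0.984) and Il1rl1 (0.980). Esrra, an orphan nuclear receptor, was at 559 to 629 in T143, 1029.5 and 946 in T138 and 568 to 657 in WT. Il1rl1, the receptor of interleukin-33, was at 828 to 1223 in T143, 21077 and 20371 in T138 and 404 to 1313 in WT. For Egr2 they were Rapgef1 (0.975), Tbc1d14 (0.968) and Itgal (0.966), the integrin chain of LFA-1. For Egr3 they were Pitpnm2 (0.982), Aldh18a1 (0.981) and Hivep3 (0.979). Hivep3 was at 241 to 650.3 in T143, 55.1 and 69.4 in T138 and 987 to 1640.1 in WT. Nab1 was most like Scp2 (0.988), Relt (0.979) and Rit1 (0.977), and Nab2 like Dvl2 (0.957), Ddx27 (0.955) and Fip1l1 (0.949).

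Reported targets of EGR factors in T cells were tested in the limma fit over all genes, with Benjamini-Hochberg adjusted p under 0.05 as the call. They are not members, but this list and the later ones were also chosen with earlier results of these data known. Their calls and p-values are therefore not independent support. Of the 24 target genes, 2 rose and 4 fell in T143 against T138, where 21.0% of all tested genes were called (10.8% higher and 10.2% lower). Their median log2 difference was 0.03, against 0.15 for all tested genes. The list is not split by EGR factor or by direction of regulation. Its counts and medians therefore carry no expected direction in any of the comparisons. Several targets are also expressed in myeloid and dendritic cells, whose markers differed in all 3 comparisons as given above, and the part of such cells was not tested. Fasl, the ligand of the death receptor Fas, averaged 112 ± 27.5 over the T143 and 10.2 ± 3.66 over the T138 libraries (3.35 ± 0.55, limma adjusted p = 0.0025). Id3, a repressor of E proteins, rose by 1.13 ± 0.32, and Socs1, an inhibitor of cytokine signalling, fell by 1.23 ± 0.26. Cdkn1b (-0.85 ± 0.19), Prdm1 (-1.92 ± 0.46) and Ndrg1 fell as well. The count of lower calls was 2 without T143 replicate 2, 0 without T138 replicate 1 and 1 without T138 replicate 2, and that of higher calls was 1 without each of these libraries. Here and below, a count after leaving out a library can hold other genes than the count before it. Fasl kept its call in every leave-one-out fit, which none of Id3, Socs1, Cdkn1b and Prdm1 did.

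In T138 against WT, 3 of the 24 target genes rose and 7 fell, where 11.0% of all genes were called (5.74% higher and 5.30% lower). The list's median was -0.42, against -0.07 for all tested genes. Tnfrsf9, the costimulatory receptor 4-1BB, was at 673 ± 76 in T138 and 2837 ± 570 in WT (-2.06 ± 0.25, limma adjusted p = 0.000842). Dgkz, a diacylglycerol kinase that damps RAS signalling, differed by -0.81 ± 0.14, and Il2rb, the beta chain of the interleukin-2 receptor, by -1.04 ± 0.19. Lag3, Fasl, Tnf and Bcl6 fell too. The genes that rose were the cell cycle inhibitors Cdkn1a (3.21 ± 0.59) and Cdkn1b (0.91 ± 0.19) and the ubiquitin ligase gene Rnf128 (3.85 ± 0.88). Without T138 replicate 2 the list held 0 higher and 1 lower gene, and without T138 replicate 1 it held 1 higher gene. The count of lower calls was 4 without WT replicate 1 and 3 without WT replicate 3. Tnfrsf9 was lower in each of these fits.

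In T143 against WT, 0 target genes rose and 7 fell, where 23.8% of all genes were called (11.7% higher and 12.1% lower). The median was -0.15, against 0.05 for all tested genes. Tnfrsf9 was at 749 ± 209 in T143 and 2837 ± 570 in WT (-1.94 ± 0.22, limma adjusted p = 0.00035). Il2rb fell by 1.14 ± 0.17 and Dgkz by 0.80 ± 0.13. Dgka, Tnf, Lag3 and Cblb, the gene of a ubiquitin ligase linked to anergy, were the other calls. Without T143 replicate 1 or WT replicate 2, 1 gene was called higher. This comparison and the preceding one share the WT libraries.

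**Figure D5:**
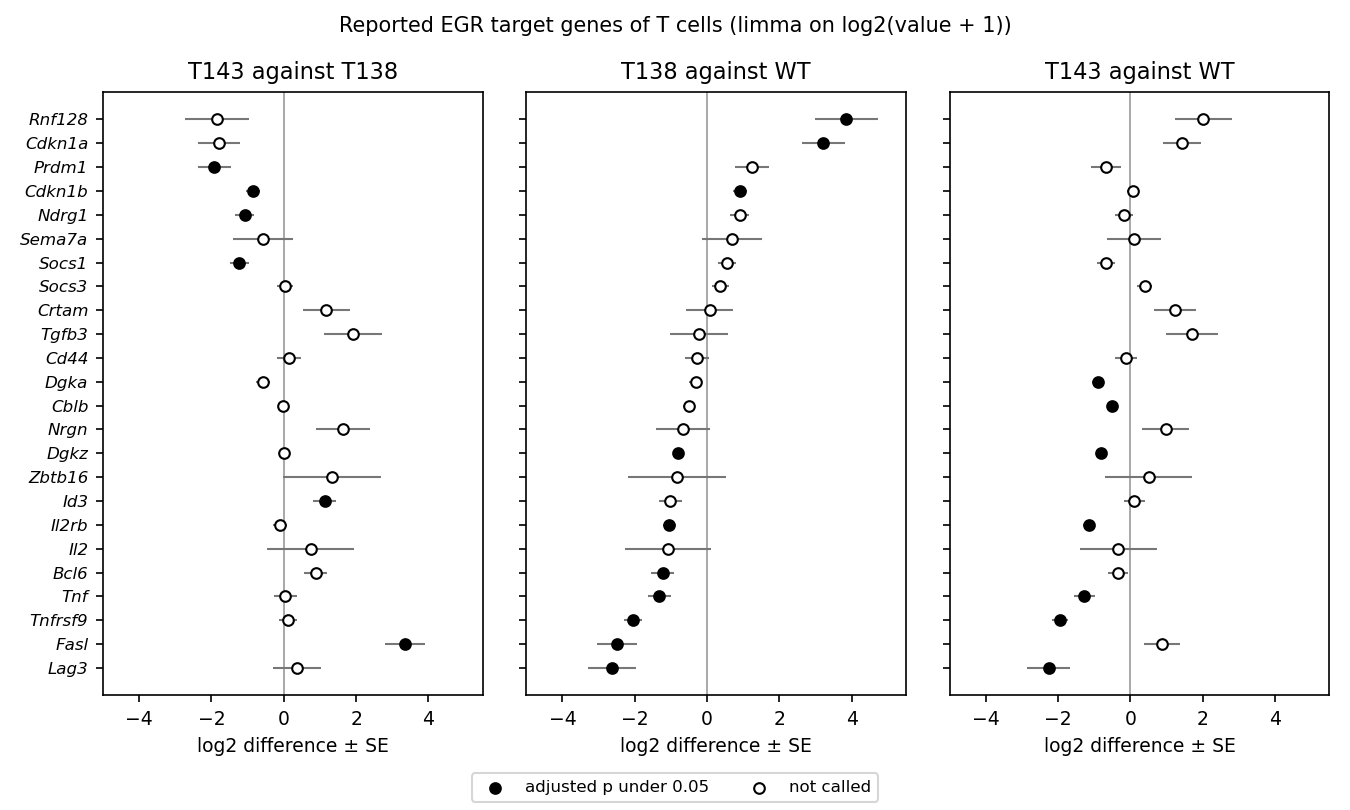
Log2 difference ± SE of 24 reported EGR target genes in the 3 comparisons, with filled points for limma adjusted p under 0.05. Tnfrsf9, Il2rb, Dgkz, Tnf and Lag3 are filled and below 0 in both comparisons with WT, and the median over the list lies between -0.42 and 0.03.

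Of 21 other immediate early genes, induced by the same signals, 3 rose and 12 fell in T143 against T138, with a median of -1.20, where 21.0% of all tested genes were called. In that comparison 7 of 10 dendritic and MHC class II markers were lower and 6 of 13 neutrophil and myeloid markers higher. In T138 against WT, 9 and 11 of these lists were higher, and the part of such cells in the counts was not tested. Those that fell included the AP-1 gene Fosb (-5.93 ± 0.38, limma adjusted p = 1.83e-05), the nuclear ERK phosphatase gene Dusp5 (-3.25 ± 0.21) and the mRNA decay gene Zfp36 (-1.8 ± 0.2). The 3 that rose were Nr4a3 (4.09 ± 0.40), the ERK phosphatase gene Dusp6 (1.37 ± 0.19) and Myc (0.68 ± 0.17). The count of lower calls was 7 without T138 replicate 1 and 7 without T138 replicate 2. Myc lost its call without T143 replicate 2, T138 replicate 1 or T138 replicate 2. In T138 against WT, 11 rose and 3 fell (median 1.25), where 11.0% of all tested genes were called. Dusp5 rose by 2.80 ± 0.21, Zfp36 by 2.06 ± 0.20 and Fosb by 3.78 ± 0.38, while Nr4a3 (-5.38 ± 0.40), Myc (-1.53 ± 0.17) and Dusp6 (-0.68 ± 0.19) fell. Dusp6 lost its call there without any 1 of T143 replicates 1, 2 and 3, T138 replicates 1 and 2, and WT replicates 1 and 3. Fosb, Dusp5 and Zfp36 were thus highest in T138, and Nr4a3, Myc and Dusp6 lowest there. These genes were named for their small p in the comparisons with T138, so no likeness to the EGR members is read from this. Nr4a3 and Myc were lower in T143 than in WT, as Egr2 and Egr3 were, but Dusp6 was higher (995 ± 80.2 against 618 ± 92.3). Fosb was lower in T143 (58.8 ± 28) than in WT (249 ± 50.8), where Egr1 overlapped, while Dusp5 and Zfp36 were not called. In T143 against WT, 5 rose and 6 fell, where 23.8% of all tested genes were called. By the size of p, the first that rose were Fosl2 (2.81 ± 0.37), Ier3 (4.01 ± 0.64) and Atf3 (4.28 ± 0.74). The first that fell were Nr4a1 (-1.05 ± 0.15), Fosb (-2.15 ± 0.34) and Myc (-0.85 ± 0.15). Atf3 averaged 57.1 ± 19.5 in T143 and 2.58 ± 2.34 in WT, and Ier3 212 ± 189 and 10.2 ± 6.1. A count of 3 reads equals a value of 2.07 to 3.19 in the WT libraries, so the size for Atf3 rests on few reads.

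Of 20 genes of the RAS-ERK-SRF route, 3 rose and 1 fell in T143 against T138, among them Nras, the gene of a RAS GTPase (0.54 ± 0.15), and Elk3, an ETS partner of SRF (-0.78 ± 0.16). For this list and those below, the shares of all tested genes called were again 21.0% between T143 and T138, 11.0% between T138 and WT and 23.8% between T143 and WT. After median centring, 0 of the 3 higher genes were called, and without T138 replicate 2 none of the 4 was. The count of higher calls was 1 without T143 replicate 2 or T138 replicate 1. In T138 against WT, 2 rose (Grb2 and Rps6ka1) and 0 fell, with 0 called without T138 replicate 1 or T138 replicate 2 and 1 without T143 replicate 1 or 2 or WT replicate 1 or 2. In T143 against WT, 2 rose and 3 fell, among them Elk3 (-0.65 ± 0.14) and Elk1 (-0.69 ± 0.18). Without T143 replicate 2 or WT replicate 3, and after median centring, none was called higher. The count of higher calls was 1 without T143 replicate 1, either T138 library or WT replicate 1 or 2, and that of lower calls was 1 without T143 replicate 1 or WT replicate 2. Both Rps6ka3 and Nras, the 2 higher genes, lost their call without T143 replicate 1 or 2 or WT replicate 1 or 3. Medians were 0.17, -0.09 and 0.05 in the 3 comparisons, against 0.15, -0.07 and 0.05 for all tested genes.

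Of 19 genes of the calcineurin-NFAT route, 2 rose and 1 fell in T143 against T138, 0 rose and 4 fell in T138 against WT, and 6 rose and 4 fell in T143 against WT. Rcan1, a calcineurin inhibitor that NFAT induces, was at 267 ± 30.8 in T143, 135 ± 24.7 in T138 and 297 ± 24 in WT. It differed by 0.98 ± 0.27 between T143 and T138 (limma adjusted p = 0.0281) and by -1.14 ± 0.27 between T138 and WT (limma adjusted p = 0.0234). The first of these calls was lost without T143 replicate 1, 2 or 3 or T138 replicate 2, and the second without T138 replicate 2, WT replicate 1 or WT replicate 3. Against WT, Plcg1, the phospholipase that starts the calcium signal, fell in T143 by 0.82 ± 0.13, and the calcineurin subunit gene Ppp3r1 rose by 0.87 ± 0.17. The count of higher genes in that comparison was 2 after median centring and 3 without T143 replicate 2. The count of lower genes there was 2 without T143 replicate 2 or 3, T138 replicate 1 or 2, or WT replicate 3. In T138 against WT the count of lower calls was 0 without T138 replicate 2 or WT replicate 3, 1 without T138 replicate 1 or T143 replicate 2, and 2 without T143 replicate 1 or WT replicate 2. The 3 calls between T143 and T138 were all lost without T138 replicate 2, the 2 higher ones also without any single T143 library and after median centring, and the lower one without T138 replicate 1. Without T138 replicate 1, the count of higher calls was 1.

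Of 13 genes of the NuRD complex, through which NAB proteins repress, 3 rose and 1 fell in T143 against T138, 0 rose and 2 fell in T138 against WT, and 1 rose and 2 fell in T143 against WT. Chd4, the remodelling ATPase that NAB2 is known to bind, was at 12468 ± 841 in T143, 7824 ± 191 in T138 and 11678 ± 744 in WT. It rose by 0.67 ± 0.13 in T143 against T138 (limma adjusted p = 0.00624) and fell by 0.58 ± 0.13 in T138 against WT (limma adjusted p = 0.0198). The first call was lost without T138 replicate 2 (limma adjusted p = 0.0672), and the second after median centring and without T138 replicate 1, T138 replicate 2 or WT replicate 3. Its paralog Chd3 fell by 1.04 ± 0.18 in T143 against WT. The count of higher genes in T143 against T138 was 1 after median centring and without T143 replicate 1, T143 replicate 2 or T138 replicate 1, and 0 without T138 replicate 2. The lower one, Mta3, lost its call without T143 replicate 1, T143 replicate 2 or T138 replicate 1. In T138 against WT the lower calls, Chd4 and Chd3, were both lost without T138 replicate 1, T138 replicate 2 or WT replicate 3, and Chd3 also without WT replicate 2. In T143 against WT the higher one, Rbbp4, lost its call without T143 replicate 1 or 2, T138 replicate 1 or 2, or WT replicate 2.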

How the data were processed

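The deposited values are a signal per gene. The authors scaled the reads of each library by 1 factor, which gives every library a total of 15.59 M. This follows from the values, which are whole multiples of 1 step per library (100% within 0.01 units). CASAVA 1.8.2, STAR 2.5.2b, HOMER 4.8, edgeR and mm10 appear in the submitters' processing notes, without their roles. RNA was made into libraries with a stranded poly(A) kit, per the labels' protocols, but the sources used here do not say whether counting used strand. Overlapping and antisense genes, and genes with near-identical copies, are therefore uncertain.

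The limma procedure (limma 3.58.1, R 4.3.3) was run on log2(value + 1) for the 15547 genes that reached a value of 1 in 2 or more libraries. It used trended, robust empirical Bayes moderation, group means over all 8 libraries, no covariate and Benjamini-Hochberg adjustment over all genes tested. Groups came from the titles. The procedure was tested on simulated counts. The log scale understates changes of low genes, and the labels do not show whether replicates are separate animals. The p-values therefore reflect only how far these libraries scatter, which may be technical.

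Members and lists were chosen with earlier results of these data known. Named genes are the members, Egr4, up to 3 called genes per direction, list and comparison with the smallest p, and for each member the 3 genes most correlated with it. Predicted genes, receptor segments and small RNAs were left out of the last. A gene named only to complete a count was added after its values were seen. Some genes that this rule names are not reported here. Transcript lengths came from GENCODE M21 and positions from RefSeq, both on GRCm38. RefSeq promoter windows, 250 bases before to 50 after a start, were matched by symbol and found for Egr2, Nab1, Nab2 and Egr4. Alternatives were other pseudocounts, filters and scalings, edgeR 4.0.16 and DESeq2 1.42.0 on recovered reads, a replicate block, only the groups compared, and leaving out libraries.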

Additional observations from a re-analysis of the deposited data

How the results depend on the processing

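The member differences were recomputed 300 times over 20 alternatives, and each moved by less than 1 residual SD of its gene. That bound is weak and is not read as stability. Leaving out a library cannot move a comparison between the other groups, and the residual SD holds the deviation of the library left out. Nab2 between T143 and WT ranged from -0.63 to 0.06. Of the 300 recomputed differences, 294 had the sign of the main fit, and the 6 others were for Nab1 between T138 and WT (0.00 or -0.01) and Nab2 between T143 and WT (0.06). Quantile normalization moved the median log2 difference of all genes to 0.014 from 0.152 for T143 against T138 and to -0.078 from 0.053 for T143 against WT, where median centring gave -0.078 too. With quantile normalization, Egr1 differed by -1.68 and 1.87 in the comparisons of T143 with T138 and of T138 with WT. The number of genes called was 3272 for T143 against T138, and 1345 to 3674 when 1 library was left out. It was 1716 and 757 to 1837 for T138 against WT, and 3698 and 2460 to 3575 for T143 against WT. Without T143 replicate 3 and T138 replicate 1, it was 1737 for T143 against T138 and 989 for T138 against WT. Leaving out 1 T138 library leaves 1, which is then assumed to vary like the other groups. With a replicate block 3109, 1804 and 3940 genes were called in the 3 comparisons. Over all tested genes, same-numbered libraries did not deviate together from their group means (correlations of -0.062 to 0.055). This check cannot show a pairing or shared batch confined to some genes. Of 600 recomputed list counts, 131 moved by more than 1.5 times, and of 1280 recomputed differences of named genes, 209 lost their call and 0 changed direction. Low read numbers limit what can be said of Egr4 and of Atf3 in WT, and the T143 libraries were the shallowest.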
